A study of Mus musculus with 56 samples.

Results

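Ribosome-bound RNA of microglia that lack the fractalkine receptor was compared between the whisker-deprived and the control barrel cortex of 5 mice. The comparison used 10 of the 56 libraries of the series, namely every bound library of the Cx3cr1 knockout line. The deprived libraries came from the left cortex (7L, 12L, 18L, 19L and 22L) and the control libraries from the right cortex of the same mice (7R, 12R, 18R, 19R and 22R). All 10 carry the genotype Cx3cr1CreErt2/CreErt2(Litt) Eef1a1LSL.eGFPL10a/+. Tamoxifen-dependent Cre is written into both copies of Cx3cr1, and Cre switches on the ribosomal protein L10a fused to EGFP. Every mouse, controls included, received 50 µg tamoxifen daily from postnatal day 1 to day 3. The right whiskers were cauterised on postnatal day 4, and cortex was taken 24 h later, on day 5. There were 3 female and 2 male mice. The deprived side was the left one in all 5 mice, so deprivation and side of the brain cannot be told apart. The 10 unbound libraries, made from the RNA left after the pulldown of the same pieces, and the 8 bound libraries of the heterozygous line served for comparison. That line carries Cre in a single copy of Cx3cr1 and received the same tamoxifen and lesion. No line without Cre in Cx3cr1 was among the microglial libraries.

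Microglia are the resident macrophages of the brain. Their receptor CX3CR1 binds fractalkine (CX3CL1), a ligand held on neuronal membranes and released by the proteases ADAM10 and ADAM17. In barrel cortex, the area that maps the whiskers, loss of whisker input is followed by removal of thalamocortical synapses, a step known to need CX3CR1. The series asks how Wnt signalling between microglia and astrocytes takes part in that remodelling. In Wnt signalling secreted ligands, carried by WLS, act on Frizzled receptors and stabilise beta-catenin, which then binds transcription factors of the TCF and LEF family.

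In bound RNA the deprived libraries held 39.9 to 53.9 M counts, with M for mega, and the control libraries 35.8 to 52.2 M. Levels are given as CPM, which are counts scaled to the normalised library size. Cx3cr1 itself, the disrupted gene, was at 0.734, 0.919, 0.788, 0.888 and 0.787 CPM in the deprived libraries of mice 7, 12, 18, 19 and 22. Their control libraries had 0.365, 0.889, 1.37, 0.979 and 0.791 CPM. The 8 heterozygous bound libraries ranged from 6.99 to 13.3 CPM, so every knockout library lay below every heterozygous one, as labelled. The labels also give polyA RNA for the knockout line and total RNA for the heterozygous line. Genotype and RNA type therefore cannot be told apart for this level. The annotated span of Cx3cr1 overlaps 9 other genes, and counting by strand is not stated. The microglial label held in this RNA: all 24 microglia markers tested were higher in bound than in unbound RNA of the line (edgeR, adjusted p under 0.05), a call made for 34.1% of all genes, with a median log2 enrichment of 2.64. The purinergic receptor P2ry12 had an enrichment of 2.19 and the growth factor receptor Csf1r one of 2.62 on the log2 scale. The call was not particular to microglia. It was also made for 12 of 18 cortical excitatory neuron genes (median 0.27) and 10 of 14 endothelial genes (median 0.4). For pan-neuronal markers it was made for 4 of 16 (median -0.21) and for astrocyte markers for 3 of 18 (median -0.4). Transcripts of other cells were also present, since pan-neuronal markers summed to 15600 to 17800 CPM in deprived and 15700 to 18500 CPM in control bound RNA, against 255 to 652 CPM and 215 to 619 CPM for the microglia markers. On the first 2 principal components libraries 7L, 7R, 18L and 18R stood apart from the other 6.

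Few genes separated the deprived from the control cortex. Of 18324 genes tested within mice, 2 passed an adjusted p of 0.05 (0.0109%, edgeR's quasi-likelihood test with mouse as a block), and both were lower in deprived libraries. They were Tcf7l2, which encodes a TCF-family partner of beta-catenin and is a known mark of thalamic and habenular neurons, and Dgkk, which encodes a kinase that turns diacylglycerol into phosphatidic acid. No gene was called higher, while 993 had an unadjusted p under 0.05, of which 654 were lower (3.57% of all tested) and 339 higher (1.85%). The DESeq2 Wald test called 36 genes, 31 lower and 5 higher, and limma-voom with sample weights called 14, all lower.

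Tcf7l2 (chromosome 19, 55741820 to 55933654, plus strand, GRCm38) had 12.6, 13.1, 16.4, 14.5 and 15.4 CPM in the deprived libraries of mice 7, 12, 18, 19 and 22. The control libraries of the same mice had 99.9, 174, 121, 92.1 and 25.3 CPM. The deprived libraries were close to each other, 4 of the controls were several times higher, and the control of mouse 22 lay just above the deprived range, so the groups did not overlap. The mean was 14.4 ± 1.54 CPM in deprived and 103 ± 53.8 CPM in control libraries (SD, n = 5 each). The log2 fold change was -2.63 ± 0.32 (SE, adjusted p = 0.040, edgeR), and the fold within a mouse ran from a log2 ratio of -3.72 in mouse 12 to -0.71 in mouse 22. The call was lost when mouse 7, 12 or 19 was left out (adjusted p = 0.38, 0.27 and 0.14), with the log2 fold change at -2.35 to -3.06 over the 5 omissions.

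Dgkk (chromosome X, 6779306 to 6948363, plus strand, GRCm38) had 23.5, 23.4, 37.9, 28.3 and 27.8 CPM in deprived libraries of mice 7, 12, 18, 19 and 22, against 43.8, 40.5, 69.0, 43.4 and 38.1 CPM in control libraries. The pair of mouse 18 stood highest in both groups, and its deprived value lay just under the lowest control, from mouse 22. The log2 fold change was -0.72 ± 0.08 (SE, adjusted p = 0.040, edgeR), with means of 28.2 ± 5.89 CPM in deprived and 47.0 ± 12.5 CPM in control libraries (SD, n = 5 each). The call was lost without the mouse block (adjusted p = 0.73), with sex as a term and no block (0.58), with all 20 knockout libraries in the fit (0.073), and also without mouse 7, 12 or 19 (adjusted p = 0.38, 0.27 and 0.12).

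The start regions of these 2 called genes are shown because both moved in the same direction and 1 of them encodes a factor of the TCF family. The windows are RefSeq sequences of GRCm38.p6, from 250 bases before to 50 bases after an annotated start, at chr19:55741560-55741859 (first start of Tcf7l2), chr19:55895071-55895370 (an internal start of Tcf7l2) and chrX:6779056-6779355 (Dgkk), all on the plus strand. Capitals mark any of 4 forms of the motif bound by TCF and LEF factors, searched on both strands. The forms are CTTTGAA and its variant CTTTGAT, and likewise CTTTGTA and its variant CTTTGTT.
Tcf7l2, first start: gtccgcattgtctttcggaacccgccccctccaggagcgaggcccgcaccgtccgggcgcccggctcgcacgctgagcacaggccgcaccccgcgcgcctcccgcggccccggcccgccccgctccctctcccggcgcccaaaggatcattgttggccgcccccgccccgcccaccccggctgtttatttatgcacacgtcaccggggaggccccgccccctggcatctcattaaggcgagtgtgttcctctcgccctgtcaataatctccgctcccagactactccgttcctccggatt
Tcf7l2, internal start: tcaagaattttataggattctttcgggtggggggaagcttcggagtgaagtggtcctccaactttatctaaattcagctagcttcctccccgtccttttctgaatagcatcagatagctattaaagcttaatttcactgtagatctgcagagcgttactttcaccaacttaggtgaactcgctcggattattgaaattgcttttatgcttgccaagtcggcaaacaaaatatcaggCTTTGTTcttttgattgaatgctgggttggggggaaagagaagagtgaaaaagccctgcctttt
Dgkk: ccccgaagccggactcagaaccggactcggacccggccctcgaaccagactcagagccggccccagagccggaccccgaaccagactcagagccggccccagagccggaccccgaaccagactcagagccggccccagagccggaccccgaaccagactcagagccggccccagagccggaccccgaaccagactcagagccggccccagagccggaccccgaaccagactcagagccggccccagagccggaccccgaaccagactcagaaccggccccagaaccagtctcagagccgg
The internal Tcf7l2 window held 1 match and the other 2 windows held none. Of 32851 windows of this length, 16.9% held at least 1 match.

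**Figure D1:**
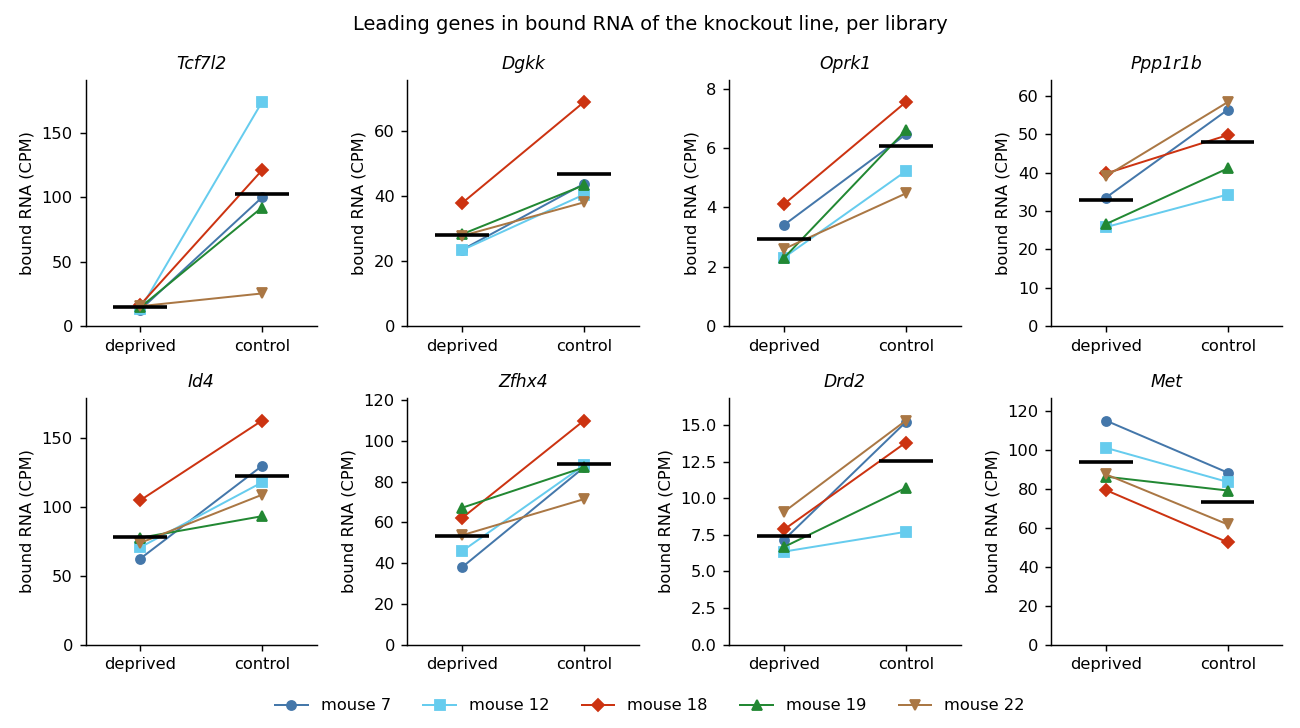
CPM in bound RNA (vertical axes, each from 0) of 8 genes in the deprived and control libraries, with a line per mouse and a black bar for each group mean. Tcf7l2 lies at 12.6 to 16.4 CPM in deprived libraries and at 25.3 to 174 CPM in control libraries, and Met is higher in the deprived library of every mouse.

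Below the threshold, the 8 genes with the next smallest p among those lower in deprived libraries had adjusted p of 0.089 to 0.15 (edgeR). All 8 were lower in each of the 5 mice, as were 4.04% of all genes tested. Genes ranked by this within-mouse test, here and among those higher, tend to move one way in every mouse, so this adds no independent evidence. The kappa opioid receptor gene Oprk1 had 3.41, 2.31, 4.11, 2.30 and 2.60 CPM in deprived libraries of mice 7, 12, 18, 19 and 22, against 6.46, 5.22, 7.55, 6.6 and 4.47 CPM in control libraries. The groups did not overlap, and the log2 fold change was -1.05 ± 0.15 (SE, adjusted p = 0.089, edgeR). Groups that did not overlap, with deprived below control, were found for 0.382% of all genes, and Zfhx4, Zfhx3, Rbms3 and Erich5 were among them. Zfhx3 and Zfhx4, which encode zinc-finger homeobox transcription factors, had log2 fold changes of -1.07 ± 0.18 and -0.75 ± 0.11 (SE). Zfhx3 reached 48.9 and 63.7 CPM in deprived libraries of mice 7 and 12 and 131 to 135 CPM in those of mice 18, 19 and 22, against 175 to 251 CPM in control libraries. Rbms3, an RNA-binding protein gene, had a log2 fold change of -0.45 ± 0.07. Erich5 rested on few counts, 2, 2, 0, 0 and 0 in deprived libraries of mice 7, 12, 18, 19 and 22 and 22, 32, 17, 14 and 14 in control libraries, so its fitted log2 fold change of -4.48 depends on the prior count.

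The other 3 genes overlapped between the groups. Id4, an inhibitor of basic helix-loop-helix transcription factors, had 62.5, 70.8, 105, 77.7 and 74.0 CPM in deprived libraries of mice 7, 12, 18, 19 and 22, against 130, 118, 163, 93.4 and 109 CPM in control libraries. Only the deprived library of mouse 18 reached into the control range, and the log2 fold change was -0.65 ± 0.10 (SE, adjusted p = 0.089, edgeR). Ppp1r1b and Drd2, which encode the phosphatase inhibitor DARPP-32 and the D2 dopamine receptor of striatal neurons, had log2 fold changes of -0.54 ± 0.08 and -0.72 ± 0.12 (SE).

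Among genes higher in deprived libraries the smallest adjusted p was 0.36. It belonged to Met, the receptor of hepatocyte growth factor, with 115, 101, 79.3, 86.2 and 87.4 CPM in deprived libraries of mice 7, 12, 18, 19 and 22, against 88.3, 83.5, 52.5, 79.1 and 61.7 CPM in control libraries. It was higher in each mouse, like 2.82% of all genes, but the groups overlapped, and the log2 fold change was 0.38 ± 0.08 (SE). Ercc5, an endonuclease of DNA excision repair, and Dtx4, a ubiquitin ligase of the Deltex family, did not overlap between groups (0.207% of all genes lay higher in this way), with log2 fold changes of 0.27 ± 0.07 and 0.33 ± 0.09 (SE). The histone demethylase gene Kdm7a, Phldb1, the galactosyltransferase gene B3galt2, the chromatin remodelling gene Arid1b and the reelin receptor gene Vldlr had log2 fold changes of 0.29 to 0.70. Arid1b had 1680, 1440, 1480, 1470 and 1200 CPM in deprived libraries of mice 7, 12, 18, 19 and 22, against 1120, 869, 437, 1060 and 1200 CPM in control libraries, so that mouse 22 showed no difference and mouse 18 had the lowest control.

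None of the microglia markers passed the test, and within mice they did not move one way. The list had a median log2 fold change of 0.03, against -0.01 over all genes tested, with 10 of 24 members below 0 and fold changes from -0.20 to 0.39. P2ry12 had 6.45, 14.7, 11.3, 21.0 and 22.8 CPM in deprived libraries of mice 7, 12, 18, 19 and 22, against 4.90, 9.45, 26.4, 17.5 and 15.5 CPM in control libraries. It was higher in the deprived library of 4 mice and lower in that of mouse 18, with a log2 fold change of 0.13 ± 0.22 (SE, adjusted p = 0.97, edgeR).

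Csf1r, the receptor on which microglial survival depends, had 15.5, 24.5, 19.5, 34.3 and 50.0 CPM in deprived libraries of mice 7, 12, 18, 19 and 22, against 13.4, 16.6, 39.8, 35.9 and 37.1 CPM in control libraries. The spread between mice was wider than the difference between groups, and the log2 fold change was 0.03 ± 0.18 (SE, adjusted p = 0.99, edgeR). The complement genes C1qa, C1qb and C1qc had log2 fold changes of 0.07 ± 0.20, 0.04 ± 0.17 and -0.01 ± 0.18 (SE). Those of Tmem119, Aif1 and the lipid receptor Trem2 were -0.07 ± 0.19, 0.15 ± 0.15 and -0.20 ± 0.23.

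Mouse 18 ran against the others for the microglial genes. The median log2 ratio of the 24 markers was 0.21, 0.39, 0.09 and 0.29 in mice 7, 12, 19 and 22 and -0.90 in mouse 18. Summed marker levels were 255, 433, 353, 572 and 652 CPM in deprived libraries of mice 7, 12, 18, 19 and 22, against 215, 329, 619, 531 and 542 CPM in control libraries. Without mouse 18 the list median was 0.24, with 0 of 24 members below 0 and 0 that passed. In bulk RNA, fewer microglia and less RNA per microglial cell cannot be told apart. Mitochondrial ribosomal RNA took 3.53% of the counts in library 18R and 1.41 to 2.16% in the other 9 bound libraries, and its part in the marker values was not tested.

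**Figure D2:**
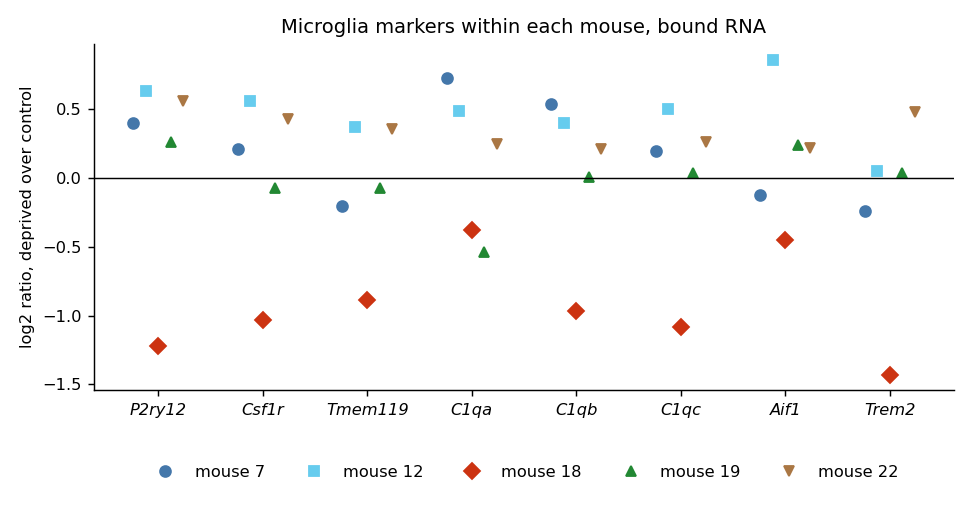
Log2 ratio of deprived over control CPM within each mouse (vertical axis) for 8 microglia markers (horizontal axis), a symbol per mouse. Mouse 18 is lowest for 7 of the 8 markers, at -1.22 for P2ry12 and -1.03 for Csf1r, while mice 12 and 22 are above 0 for all 8.

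No gene of the microglial state lists passed either. Of 20 activated and axon-tract microglia genes 16 were below 0 (median -0.10) and none passed, and without mouse 18 that count was 6 of 20 (median 0.07). The member with the smallest p was Gpnmb, a membrane glycoprotein of phagocytes, at 5.74, 4.34, 1.96, 3.29 and 2.70 CPM in deprived libraries of mice 7, 12, 18, 19 and 22, against 3.85, 6.81, 6.84, 6.31 and 3.66 CPM in control libraries (log2 fold change -0.65 ± 0.26, SE, adjusted p = 0.91, edgeR). Mouse 7 alone had more in its deprived library. None passed among 25 complement and engulfment genes (median 0.01), 22 lysosomal genes (median 0), 20 inflammatory cytokine and NF-kB genes (median -0.02), 21 interferon response genes (median -0.03) and 20 genes of the TGF-beta system (median 0.01). Without mouse 18 these medians were 0.17, with 4 of 25 below 0, for complement, 0.14, with 2 of 22 below 0, for lysosomal genes, 0.09 for cytokines, 0.01 for interferon response and 0.05 for TGF-beta. The cytokine genes Il1b and Tnf were low, with means of 0.547 and 0.318 CPM in deprived and 0.726 and 0.511 CPM in control libraries. Lrp1, an engulfment receptor, had a log2 fold change of 0.38 ± 0.13 and Ltbp4, which binds latent TGF-beta, one of 0.53 ± 0.18 (SE, adjusted p = 0.83 for both, edgeR).

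The ligand and proteases of the fractalkine system varied little. Cx3cl1 had a log2 fold change of -0.07 ± 0.11, Adam10 one of 0.13 ± 0.07 and Adam17 one of 0.05 ± 0.15 (SE). Border macrophage and monocyte genes were all 11 higher in bound than in unbound RNA and had a median of 0.43, with 4 of 11 below 0. The median varied with the setting and the mice used, and was 0.05 without the mouse block, 0.97 without mouse 18, and 0.23, 0.11 and 0.14 without mouse 7, 12 or 22. The scavenger receptor gene Lyve1 had 5.19, 20.3, 15.7, 18.9 and 7.47 CPM in deprived libraries of mice 7, 12, 18, 19 and 22, against 0.779, 5.18, 34.7, 22.7 and 5.20 CPM in control libraries. Mice 7, 12 and 22 had more in the deprived library and mice 18 and 19 had less, and no member of the list passed. Of 443 genes with a log2 enrichment of at least 2 in heterozygous bound RNA, 432 were tested, none passed and their median was 0.09, with 155 below 0. Without mouse 12 the median was 0.02 (209 of 431 below 0) and without mouse 18 it was 0.20 (73 of 429 below 0). The count with an unadjusted p under 0.05 was 8 lower and 38 higher, beside 3.57% and 1.85% of all genes. Their summed level was 48200 CPM in library 18R and 58300 to 85700 CPM in the other 9.

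Outside Tcf7l2, Wnt genes showed no call. The list of ligand genes, which also holds the carrier gene Wls and the acyltransferase gene Porcn, had 14 members tested and 9 below 0 (median -0.05). The ligand genes Wnt5a, Wnt7a and Wnt7b had log2 fold changes of 0.04 ± 0.12, -0.04 ± 0.15 and 0.17 ± 0.11 (SE). Wls had one of -0.06 ± 0.18. Receptors had a median of 0.05 (6 of 15 below 0) and antagonists one of 0.06 (7 of 15 below 0). Among 18 beta-catenin partners and Wnt targets the median was 0.05. Axin2, a feedback target of the pathway, had 20.6, 21.9, 21.3, 22.5 and 21.8 CPM in deprived libraries of mice 7, 12, 18, 19 and 22, against 22.5, 21.9, 23.3, 22.1 and 21.3 CPM in control libraries. The groups overlapped almost entirely, with a log2 fold change of -0.04 ± 0.08 (SE). Lef1, a second factor of the family and also a thalamic gene, was lower in the deprived library of 4 of 5 mice, with a log2 fold change of -0.82 ± 0.30 (SE, adjusted p = 0.87, edgeR).

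The lowest list medians were those of choroid plexus, thalamic and striatal genes. These lists were chosen with earlier results of these data known, so the counts describe them and do not test them. Hippocampal genes had a median of -0.10 (12 of 15 below 0, none passed), and one of 0.01 without mouse 18. Of 21 thalamic and habenular neuron genes tested 19 were below 0, with a median of -0.66, and 15 had an unadjusted p under 0.05 in the lower direction, against 3.57% of all genes. Tcf7l2 is a member, was the one that passed and is part of the sums that follow. Summed levels were 167, 230, 173, 281 and 259 CPM in deprived libraries of mice 7, 12, 18, 19 and 22, against 389, 633, 524, 443 and 293 CPM in control libraries, so the groups did not overlap. The transcription factor gene Zic1 had 6.42, 13, 12.5, 52.2 and 36.8 CPM in deprived libraries, against 38.4, 108, 106, 72.7 and 49.3 CPM in control libraries of the same mice, with log2 ratios of -2.57, -3.05 and -3.08 in mice 7, 12 and 18 and of -0.48 and -0.42 in mice 19 and 22. Its log2 fold change was -1.91 ± 0.40 (SE, adjusted p = 0.31, edgeR). The homeobox gene Shox2 was at 0 in 4 deprived libraries and at 0.468 CPM in 18L, against 0.0678 to 2.5 CPM in control libraries. Six3, a homeobox gene on both the thalamic and the striatal list, and Synpo2, an actin-binding protein gene, had log2 fold changes of -1.18 ± 0.24 and -0.66 ± 0.13 (SE).

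Of 18 striatal neuron genes, a list chosen with earlier results of these data known, 17 were below 0, with a median of -0.48. In the lower direction 11 had an unadjusted p under 0.05 (edgeR), beside 3.57% of all genes. Besides Ppp1r1b, Drd2 and Six3 they included Rxrg, a retinoid receptor gene, with a log2 fold change of -0.65 ± 0.14 (SE, adjusted p = 0.34, edgeR). None passed, and the summed level, led by abundant members, overlapped between the groups, at 1070 to 1620 CPM in deprived and 998 to 1600 CPM in control libraries. All 12 choroid plexus and ependymal genes were below 0, with a median of -0.89, and the difference was concentrated in mice 7 and 12. Their sum was 42.2, 146, 677, 588 and 597 CPM in deprived libraries of mice 7, 12, 18, 19 and 22, against 737, 1030, 762, 647 and 678 CPM in control libraries. Ttr, the choroid plexus carrier of thyroid hormone, chosen after its values were seen, had 0.708 CPM in 7L and 86.8 CPM in 12L, against 634 CPM in 7R and 903 CPM in 12R. In mice 18, 19 and 22 its log2 ratio was only -0.13 to -0.22. Enpp2, Kcnj13, Clic6 and Kl had log2 fold changes of -0.52 to -1.32 and adjusted p of 0.69 to 0.92 (edgeR). The part of these lists in the values of Tcf7l2, Dgkk and the genes next to them in rank was not tested.

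**Figure D3:**
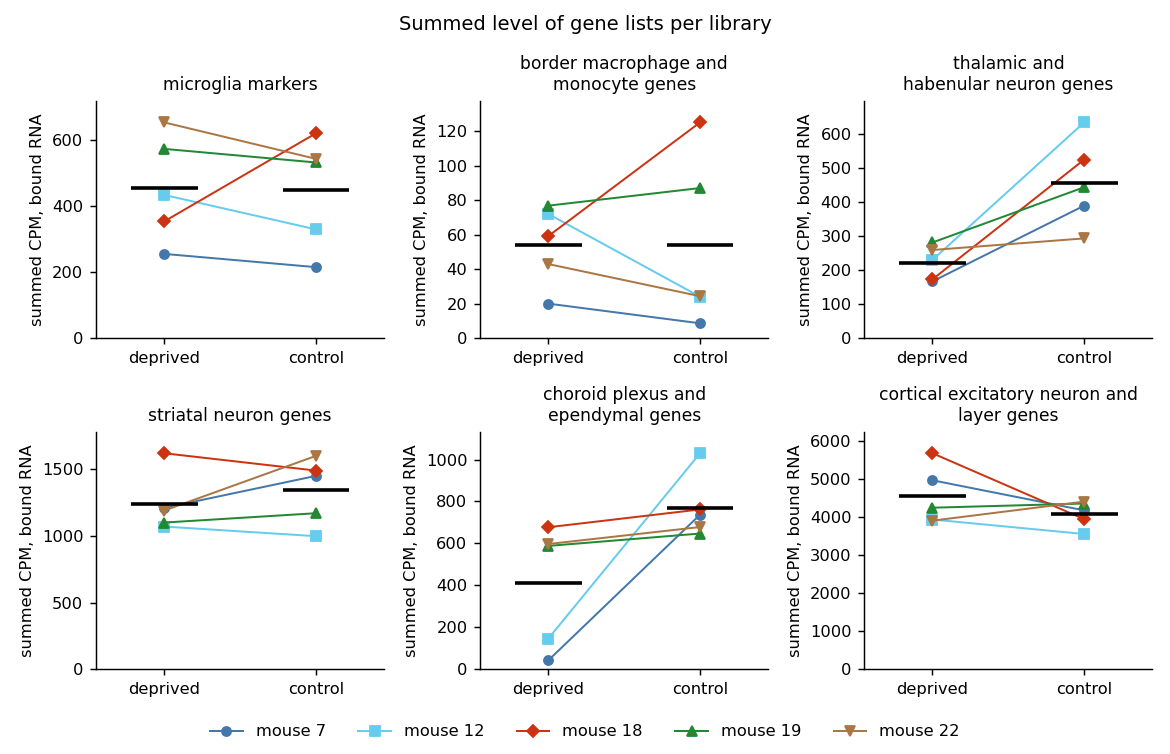
Summed CPM of 6 gene lists in bound RNA (vertical axes, each from 0) in deprived and control libraries, with a line per mouse and a black bar for each group mean. Thalamic and habenular genes lie at 167 to 281 CPM in deprived and 293 to 633 CPM in control libraries, while mouse 18 crosses the other mice in the microglia panel.

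Of 18 cortical excitatory neuron and layer genes 5 were below 0 (median 0.05) and none passed, and without mice 7 and 18 the count was 11 of 18 (median -0.03). Lhx2, a homeobox gene of cortical progenitors and upper layers, had 185, 188, 213, 186 and 184 CPM in deprived libraries of mice 7, 12, 18, 19 and 22, against 153, 179, 142, 149 and 159 CPM in control libraries, without overlap (log2 fold change 0.29 ± 0.08, SE, adjusted p = 0.70, edgeR). Rasgrf2, an exchange factor of upper-layer neurons, had one of 0.28 ± 0.08 (SE). Astrocyte, oligodendrocyte lineage, endothelial and mural or meningeal lists had medians of -0.07, -0.05, 0.06 and 0.09 and no member that passed. Interneuron genes had a median of -0.19, with 10 of 15 below 0 and none that passed. At an unadjusted p under 0.05 (edgeR) there were 6 lower and 0 higher, beside 3.57% and 1.85% of all genes. That list too was chosen with earlier results known. Nefh, the heavy neurofilament gene, was at 78.9 to 124 CPM in deprived and 137 to 202 CPM in control libraries, with a log2 fold change of -0.78 ± 0.14 (SE, adjusted p = 0.18, edgeR). Of 22 immediate early genes, which follow neuronal activity, 13 were below 0 (median -0.06) and none passed. Their fold changes ran from -0.48 to 0.76, and 4 of the 22 were lower in each of the 5 mice, as were 4.04% of all genes. Egr1, Arc and Npas4, of those 4, had log2 fold changes of -0.21 ± 0.07, -0.45 ± 0.16 and -0.31 ± 0.14 (SE) and adjusted p of 0.81 to 0.92 (edgeR).

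**Figure D4:**
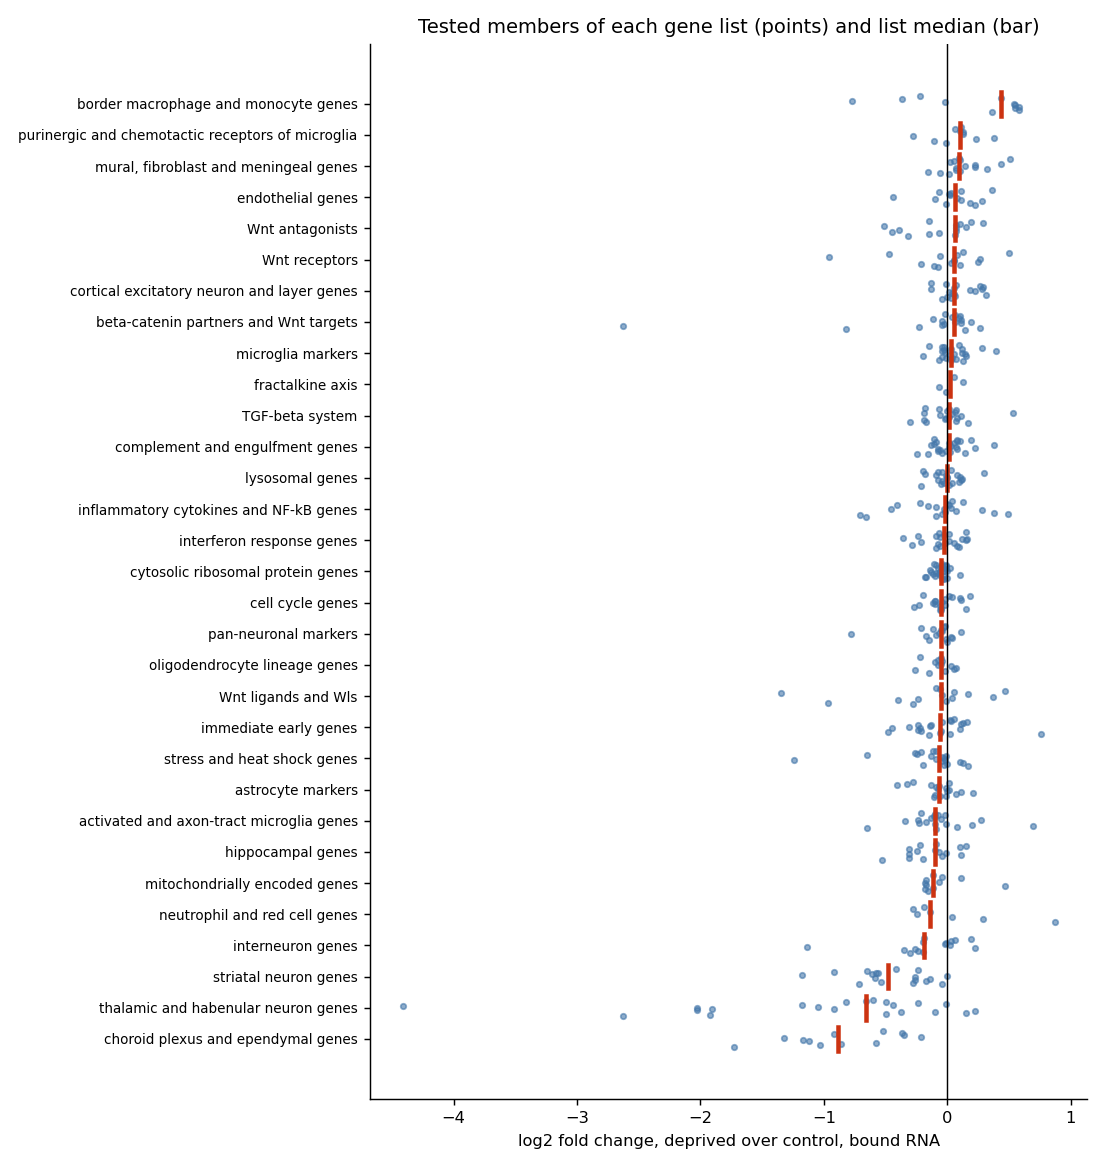
Log2 fold change of deprived over control bound RNA (horizontal axis) of each tested member (points) of 31 gene lists, with the list median as a red bar. Choroid plexus, thalamic and striatal genes have the lowest medians, -0.89, -0.66 and -0.48, and the microglia markers lie around 0 (median 0.03).

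Tcf7l2 was also lower in the unbound RNA of the pieces, a comparison added after the data were seen. There 3 of 18421 genes passed (0.0163%, edgeR with mouse as a block), all lower in deprived libraries, namely Id4 (log2 fold change -0.71 ± 0.07, SE, adjusted p = 0.0032), Tcf7l2 (-2.69 ± 0.29, adjusted p = 0.0099) and Rbms3 (-0.50 ± 0.06, adjusted p = 0.024). Unbound Tcf7l2 was at 10.5, 12.4, 11.5, 13.5 and 11 CPM in deprived libraries of mice 7, 12, 18, 19 and 22, against 89.8, 149, 94.3, 83.2 and 18.7 CPM in control libraries. The order of the controls was the one seen in bound RNA, with mouse 22 again lowest. Tcf7l2 had a bound over unbound log2 ratio of 0.03 and Dgkk one of 0.09, so neither was enriched in bound RNA (adjusted p = 0.56 and 0.25, edgeR). The thalamic and striatal lists had unbound medians of -0.74 and -0.35, and the choroid plexus list one of -0.76.

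A test of the difference between the fractions called 0 of 19681 genes (0% of those tested, edgeR), with 721 at an unadjusted p under 0.05 and 0 called by the DESeq2 Wald test and by limma-voom. The deprivation effect in bound minus unbound RNA was 0.03 ± 0.09 log2 units for Tcf7l2 and 0.18 ± 0.13 for Dgkk (SE). For Arid1b, strongly enriched in bound RNA, it was 0.71 ± 0.19, with a log2 fold change of -0.01 ± 0.05 in unbound RNA (adjusted p = 1.0 for the difference). Bound and unbound libraries come from the same pieces and are not independent of each other.

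**Figure D5:**
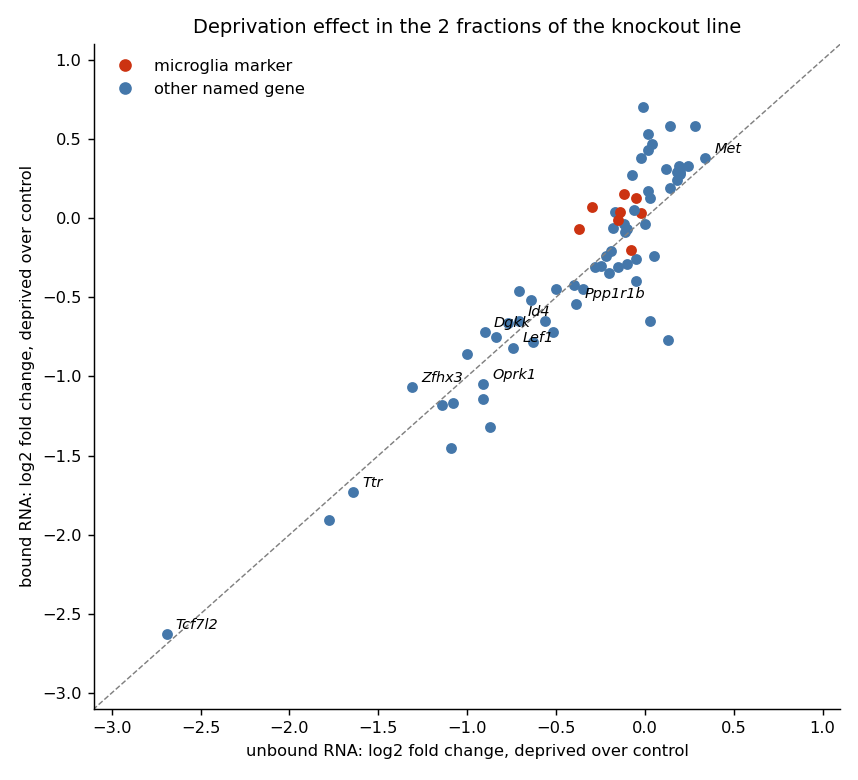
Log2 fold change of deprived over control in unbound (horizontal axis) and bound RNA (vertical axis) of the knockout line for 71 genes named here that were tested in both, with equality as a dashed line. Tcf7l2 lies at -2.69 and -2.63, and the 8 microglia markers (red) lie between -0.37 and 0.15 on both axes.

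Set against the heterozygous line, the deprivation effect in bound RNA differed for 100 of 19601 genes (edgeR), more negative in the knockout line for 62 (0.316%) and more positive for 38 (0.194%). Deprived heterozygous libraries had 15.7 to 19.5 CPM Tcf7l2 and control heterozygous libraries 11.7 to 18.8 CPM, so the knockout deprived libraries, at 12.6 to 16.4 CPM, lay near both and the knockout controls, at 25.3 to 174 CPM, above them all. The difference of the effect was -2.91 ± 0.43 log2 units for Tcf7l2 (SE, adjusted p = 0.023, edgeR) and -1.31 ± 0.27 for Dgkk (adjusted p = 0.039). It was -3.71 ± 0.62 for Zic1, which had means of 39.7 CPM in deprived and 9.40 CPM in control heterozygous libraries, the opposite direction to the knockout line. The transcription factor gene Mef2c had a difference of 0.96 ± 0.17 (SE). None of the 24 microglia markers passed in this difference. Of them 23 were below 0 (median -0.52), as were 17 of 18 astrocyte markers (median -0.44), 13 of 16 mural, fibroblast and meningeal genes (median -0.41) and 12 of 12 choroid plexus and ependymal genes (median -1.75), beside a median of -0.03 over all genes tested.

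That contrast rests on the heterozygous grouping. Both pieces of mouse 17 are labelled deprived and both of mouse 21 control, and only mice 14 and 15 gave a piece to each group. Without libraries 17R and 21L the counts were 5 lower and 0 higher, and grouped by the side letter of the library names they were 2 lower and 0 higher. The labels also give polyA RNA for the knockout line and total RNA for the heterozygous line, so genotype and RNA type cannot be told apart for a level, although both groups of a line share the type.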

How the data were processed

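Raw read counts per Ensembl gene, deposited by the authors as whole numbers, were used as deposited for 55385 genes of the knockout line and for the 45681 genes shared with the heterozygous line. The submitters' processing notes list HISAT2 2.2.0, featureCounts 2.0.0, cutadapt 2.9, Trim Galore 0.6.4 and FastQC 0.11.9, with the builds GRCm38 and mm10, in no stated order. Their settings and the counting strand are not given in the sources used here. Per the labels' protocols, the Nugen Ovation V2 kit gave the cDNA.

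Tests across genes used edgeR 4.0.16 under R 4.3.3 (filterByExpr, TMM, quasi-likelihood F test, two-sided, Benjamini-Hochberg adjustment over all genes tested). Deprived and control libraries of the knockout line were compared with mouse as a block, since the number in a library name is that of the mouse. After group means were removed the 2 bound libraries of mice 7, 12, 18, 19 and 22 correlated at 0.42, 0.32, 0.09, 0.18 and 0.16. The difference between fractions had the tissue piece as a block, and that between lines had no block. CPM used TMM library sizes. The SE given for an edgeR log2 fold change is its absolute value divided by the square root of the F statistic. In the tests with mouse as a block, p-values rest on how the difference between deprived and control libraries varies across the 5 mice. The tests between fractions and between lines had no mouse block, so 2 pieces of a mouse counted as separate replicates. Precision at low counts is limited by counting error. DESeq2 1.42.0 and limma 3.58.1 served as alternatives.

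Named genes were those that passed, up to 8 more per direction by smallest p, up to 4 members per list, a fixed set, and up to 5 per direction from each difference. Predicted genes were left out, and some others chosen this way are not reported here. The unbound comparison and the list medians without a mouse were added after the data were seen. The members and the 31 lists were chosen with earlier results of these data known. Genes such as Tcf7l2, P2ry12, Csf1r, Id4, Zfhx3, Ppp1r1b, Six3, Lef1 and Cx3cr1 overlap another annotated gene in GENCODE vM21. Their counts are uncertain to that extent. The gene that overlaps Tcf7l2, Ppnr, lies on the same strand, while Dgkk has no overlapping gene.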

Additional observations from a re-analysis of the deposited data

Results flagged for a closer look

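Among 216 groups of 5 values examined, 10 held a library far from the other 4, close to the 1 in 20 that chance gives. Library 18R had 69.0 CPM of Dgkk, against 38.1 to 43.8 CPM in the other controls, and 200 CPM of Rbms3, against 134 to 149 CPM. Library 18L had 0.468 CPM of Shox2 where the other deprived libraries had 0, 213 CPM of Lhx2 (184 to 188 CPM in the others), a sum of 817 CPM over Wnt receptors (706 to 729 CPM) and 1620 CPM over striatal genes (1070 to 1210 CPM). Library 7L had 178 CPM of Rasgrf2 (142 to 146 CPM) and 0.551 CPM of Tnf (0.213 to 0.286 CPM). Library 7R had 58.0 CPM of Egr1 (44.9 to 48.6 CPM), and 19R had 58.0 CPM of Sowaha (75.5 to 80.0 CPM). So 6 of the 10 belong to mouse 18.

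The deprivation effect in knockout minus heterozygous bound RNA passed the test (edgeR, adjusted p of 0.023 to 0.046) for 17 of the genes named. In log2 units it was -1.31 for Dgkk, -2.91 for Tcf7l2, -1.59 for Oprk1, -1.14 for Zfhx4, -3.71 for Zic1, -2.64 for Calb2 (calretinin), -0.85 for Gad1 (a GABA-synthesising enzyme), -1.72 for Enpp2, -0.96 for Ifi27, -2.50 for Slitrk6, -1.53 for Sowaha and -1.11 for Trmt2b. It was 0.68 for B3galt2, 0.66 for Dtx4, 0.96 for Mef2c, 0.92 for Efna5 (an axon guidance ligand) and 0.88 for Cxxc4. These calls depend on the heterozygous grouping. Over all genes tested, 100 of 19601 passed this difference (edgeR). Part of the named genes were chosen because they passed it, so the count of 17 is raised by that choice. It cannot be set against the share over all genes, and enrichment among the named genes was not tested.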

How the results depend on the processing

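In bound RNA Tcf7l2 and Dgkk were lower in deprived libraries under each of the 13 alternatives run. The 2 genes called lower in deprived bound RNA became 1 without the replicate block (Tcf7l2 alone), 1 with sex as a term and no block (Tcf7l2), 5 with all 20 knockout libraries (Id4, Tcf7l2, Oprk1, Rbms3 and Erich5, without Dgkk), 31 with the DESeq2 Wald test, 14 with limma-voom, 162 without the filter on low counts and 13 without mice 7 and 18. The 0 genes called higher became 65 without the filter, 5 with the Wald test and 2 without mice 7 and 18. Of the 227 genes called without the filter, 215 were among those that passed it. The SE of Tcf7l2 was 0.32 with the filter and 0.1 without it. Leaving out a mouse gave 0 to 6 lower and 0 to 1 higher. The difference between fractions gave 10 lower and 41 higher without the filter and 0 otherwise.

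For the difference between lines, 62 lower and 38 higher became 72 and 33 with mouse as a block. They became 370 and 206 without the filter, 324 and 410 with the Wald test and 102 and 58 with limma-voom. Without 17R and 21L they were 5 and 0, and by side letter 2 and 0. Leaving out a library or a knockout mouse gave 0 to 178 lower and 0 to 86 higher. In unbound RNA the 3 lower and 0 higher became 7 lower without the replicate block, 367 lower and 53 higher without the filter, 59 and 3 with the Wald test and 28 lower with limma-voom. There were 2 higher without mice 7 and 18, and leaving out a mouse gave 0 to 25 lower and 0 to 2 higher. The cause of these changes was not tested. With 5 pairs an exact permutation of signs cannot give p below 0.0625.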
